A study of Mus musculus with 4 samples.

Results

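Fat storage genes were examined in cultured mouse articular chondrocytes: 10 genes of lipid uptake, lipid binding, lipid droplets and fat cell identity, namely Fabp4, Fabp5, Plin2, Plin4, Lpl, Car3, Cd36, Pparg, Adipoq and Cfd. They were selected by gene symbol from the 55450 genes of the deposited table, with their values in these libraries already known, above all those of the Cart-miR-23clus KO library against wild type. The values that chose them are therefore given as a description. All 10 were found, and 7 had enough reads to be compared (at least 20 reads in both libraries together); Cd36, Adipoq and Cfd did not.

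There were 4 libraries, 1 per condition, made from the 3′ ends of mRNAs of chondrocytes taken from femoral heads of mice aged 3 weeks. The wild type library (WT) carries the strain label C57BL/6. In the Cart-miR-23clus KO library, also C57BL/6, both miR-23a/b clusters were flox/flox and Col2a1-cre was present. The cre is driven by Col2a1, the collagen gene of chondrocytes, and in which cells of the culture the clusters were lost was not measured in these libraries. The miR-26a KO library has the genotype miR-26a -/- in C57BL/6. The fourth library (miR-26a KO + mimic) has the same genotype, with the strain given as C57BL6/J, and its cells were transfected with a miR-26a mimic. The labels call the control wild type, whereas the study's methods name flox/flox mice of the clusters as the control. It is not stated if the miR-26a KO cells received a control transfection. How many mice gave cells to a library is not given in the sources used here. With 1 library per condition there is no replicate check. No test between conditions was made, and every 95% interval covers counting error only.

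Each library held from 1328042 to 1498579 reads on the genes of the TPM table. Chondrocyte markers were abundant in all 4 libraries: Col2a1, the main collagen of cartilage, ranged from 5452 to 7062 TPM and Acan, the core protein of its main proteoglycan, from 472 to 661 TPM, where TPM is the deposited unit, reads scaled by gene length and library size. None of the 16 chondrocyte markers was at 0. Libraries of mRNA 3′ ends do not measure mature miRNAs, so the deletions themselves could not be checked in them.

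Fat cells take up fatty acids that Lpl releases from circulating triglycerides, carry them in the cytosol bound to proteins of the Fabp family, and store them as triglyceride in droplets coated by perilipins (Plin). Pparg is the transcription factor that drives this programme, and many genes of the set are among its known targets. Macrophages also express several of these genes, among them Lpl, Fabp4, Fabp5, Plin2 and Cd36. Chondrocytes can hold lipid droplets too. MiR-27 is known for limiting fat cell formation, in part through Pparg.

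Sequences of miRNAs from the deleted clusters and of the added miR-26a are shown first, because their seeds (bases 2 to 8, in capitals), which pair with target mRNAs, decide which sites in the fat storage genes can be searched for. They are RefSeq mature sequences on GRCm38.p6. The miR-23a cluster on chromosome 8 holds miR-23a, miR-27a and miR-24, and the miR-23b cluster on chromosome 13 holds miR-23b, miR-27b and miR-24. MiR-27a and miR-27b share a seed. The sense strand of the transfected mimic equals mature miR-26a-5p over its whole length.
miR-23a-3p: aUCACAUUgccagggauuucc
miR-27a-3p: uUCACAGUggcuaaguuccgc
miR-27b-3p: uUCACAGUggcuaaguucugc
miR-24-3p: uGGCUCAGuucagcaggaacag
miR-26a-5p: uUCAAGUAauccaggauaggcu

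Matches of 7 bases to these seeds were sought on the sense strand of the longest annotated 3′ UTR of each gene (GENCODE, GRCm38; UTR of at least 50 bases). The searched letters were AATGTGA for miR-23 (from the seed of miR-23a), ACTGTGA for miR-27, CTGAGCC for miR-24 and TACTTGA for miR-26a. Only Lpl and Pparg held any. The 3′ UTR of Lpl, 2428 bases long, held 1 match each to miR-23, miR-27 and miR-24, and that of Pparg, 204 bases long, held 1 match to miR-27. No match to any of the 4 seeds was found in the 3′ UTRs of Fabp4, Fabp5, Plin2, Plin4, Car3, Cd36, Adipoq and Cfd, which are 69 to 1660 bases long. Over all 20661 genes with such a UTR, 15.3% held a match to miR-23, 16.3% to miR-27, 16.5% to miR-24 and 9.83% to miR-26a. A match is a run of letters and not a shown binding site. The 4 matches are printed with the 9 bases on either side, the match in capitals, all on the plus strand. At both miR-27 matches and at the miR-24 match the next base was an A, and at the miR-23 match it was a T.
Lpl, miR-27, chr8:68906337-68906361: ggagcagaaACTGTGAaatttgtgg
Lpl, miR-23, chr8:68906404-68906428: tcgtcattcAATGTGAttcagaaag
Lpl, miR-24, chr8:68906806-68906830: tctgtctcaCTGAGCCaacttaact
Pparg, miR-27, chr6:115490274-115490298: aagaaatttACTGTGAaaaagcatt

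The study compared proteins and mRNAs of Cart-miR-23clus KO and wild-type chondrocytes to look for genes that the clusters hold down. Its list of candidates raised in both protein and mRNA includes Lpl. Only mRNA is compared here. A gene was counted as above when its TPM was over 2 times that of the other library and as below when it was under 0.5 times. Of the 7 fat storage genes compared, 5 were above 2 in Cart-miR-23clus KO against WT (Car3, Fabp4, Plin4, Pparg and Lpl) and 0 below 0.5, where 4.73% of all 9573 genes compared were above and 4.38% below. The members were chosen with this contrast in view, so nothing is read from that count. With no filter on reads 7 of 10 members were above and 0 below, where 10.3% of genes were above and 8.02% below. The median log2 ratio of the 7 members with enough reads was 1.74, and that of all genes compared was -0.02. The 10 genes together summed to 425 TPM in WT, 1120 TPM in Cart-miR-23clus KO, 354 TPM in the miR-26a KO and 407 TPM with the mimic. The ratios were unequal: Plin2 and Fabp5, the more widely expressed relatives of Plin4 and Fabp4, lay near a ratio of 1.

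**Figure D1:**
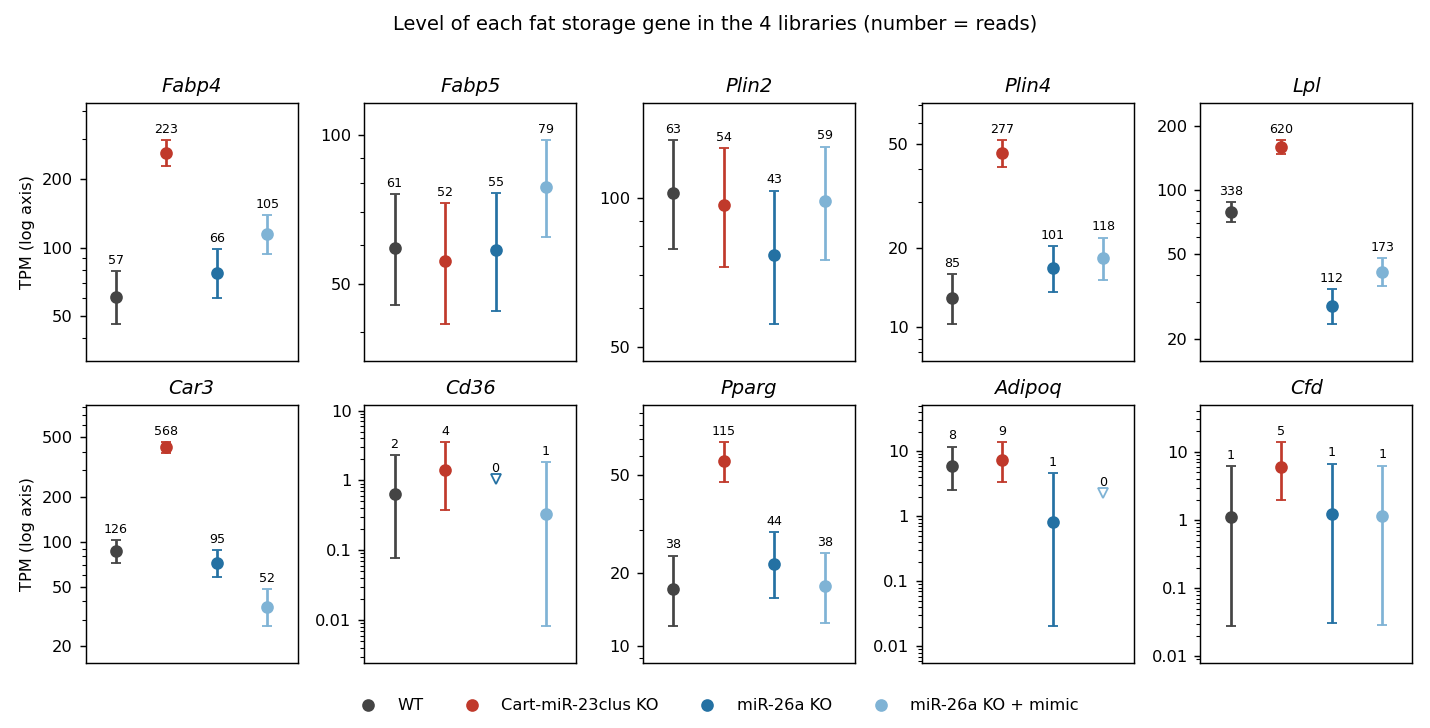
TPM of each of the 10 fat storage genes (vertical log axes, one scale per gene) in the 4 libraries, with the reads above each point and bars for the 95% counting interval. Open triangles mark the upper limit of the interval where there were 0 reads. Fabp4, Plin4, Lpl, Car3 and Pparg are highest in Cart-miR-23clus KO with intervals clear of the other 3 libraries, while those of Fabp5 and Plin2 overlap across all 4.

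Lpl (chr8:68880491-68907448 on GRCm38, plus strand), the lipase that frees fatty acids from lipoproteins, had the most reads of the 10 genes in every library. It was covered by 338 reads in WT, 620 in Cart-miR-23clus KO, 112 in the miR-26a KO and 173 with the mimic, which correspond to 78.6, 159, 28.6 and 41.3 TPM. The library order was therefore Cart-miR-23clus KO, WT, mimic and miR-26a KO, and the counting intervals of all 4 libraries were apart. The ratio of Cart-miR-23clus KO to WT was 2.02 (95% interval 1.81 to 2.37), just past the limit of 2, and the gene stood at rank 439 from the highest among the 9573 compared. Lpl was also the only one of the 7 members below 0.5 in miR-26a KO against WT, at a ratio of 0.364 (0.292 to 0.452).

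Cd36, a membrane receptor that takes up long-chain fatty acids, was almost absent. It had 2 reads in WT, 4 in Cart-miR-23clus KO, 0 in the miR-26a KO and 1 with the mimic. At these depths 0 reads allow up to 3 reads, or 2.20 RPM (reads scaled by library size alone) in miR-26a KO, so a difference between libraries was not detectable. Of the 2 genes of fatty acid uptake, one thus led the set in reads and the other had at most 4.

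Fabp4 (chr3:10204088-10208576, minus strand), the fatty acid carrier of fat cells and macrophages, was covered by 57 reads in WT, 223 in Cart-miR-23clus KO, 66 in the miR-26a KO and 105 with the mimic. Its levels were 60.9, 262, 77.4 and 115 TPM. The Cart-miR-23clus KO library was far above the other 3, and WT and miR-26a KO had overlapping intervals. The ratio of Cart-miR-23clus KO to WT was 4.31 (3.29 to 6.01), rank 59 among the genes compared. The intervals are set on reads scaled by library size alone, on which scale this ratio was 4.41.

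Fabp5 (chr3:10012548-10016607, plus strand), a fatty acid carrier found in many cell types, lies on the same stretch of chromosome 3 as Fabp4, with Fabp9 and Fabp12. It had 61 reads in WT, 52 in Cart-miR-23clus KO, 55 in the miR-26a KO and 79 with the mimic, or 59.2, 55.5, 58.6 and 78.6 TPM. All 4 intervals overlapped, and the ratio of Cart-miR-23clus KO to WT was 0.939 (0.651 to 1.42). Fabp4 and Fabp5 were at nearly the same level in WT, and in Cart-miR-23clus KO Fabp4 was the higher by a wide margin. Of their neighbours, Fabp9 had 0 reads in every library and Fabp12 had 2 reads, both in miR-26a KO.

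Plin4 (chr17:56100591-56109803, minus strand), a perilipin that coats small lipid droplets and is abundant in fat tissue, had 85 reads in WT, 277 in Cart-miR-23clus KO, 101 in the miR-26a KO and 118 with the mimic. In TPM these were 12.8, 46.0, 16.7 and 18.3. Only the Cart-miR-23clus KO interval stood clear of the others. Its ratio to WT was 3.59 (2.87 to 4.75), rank 84.

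Plin2 (chr4:86648386-86670060, minus strand), the perilipin found on the droplets of most cells, had 63 reads in WT, 54 in Cart-miR-23clus KO, 43 in the miR-26a KO and 59 with the mimic. Its levels of 103, 96.8, 76.9 and 98.6 TPM could not be told apart at this depth. The ratio of Cart-miR-23clus KO to WT was 0.944 (0.660 to 1.41), so a difference of 2 times in either direction lay outside the interval. Plin2 had the highest TPM of the 10 genes in WT and was in 4th place in Cart-miR-23clus KO.

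Car3 (chr3:14863512-14872523, plus strand), a carbonic anhydrase of low activity that is abundant in fat cells and slow muscle, showed the widest range of the well covered genes. It had 126 reads in WT, 568 in Cart-miR-23clus KO, 95 in the miR-26a KO and 52 with the mimic, or 86.5, 429, 71.6 and 36.6 TPM. The intervals of WT and miR-26a KO overlapped, Cart-miR-23clus KO was above them and the mimic library below. The ratio of Cart-miR-23clus KO to WT was 4.96 (4.19 to 6.22), rank 41. Its neighbours on chromosome 3 did not carry such reads: Car13 had 6 to 12 reads per library and Car2 had 1 read, in miR-26a KO.

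Pparg (chr6:115360951-115490399, plus strand), the master regulator of fat cell formation, had 38 reads in WT, 115 in Cart-miR-23clus KO, 44 in the miR-26a KO and 38 with the mimic. The levels were 17.1, 57.0, 21.8 and 17.6 TPM. The 3 libraries other than Cart-miR-23clus KO had overlapping intervals. The ratio to WT was 3.33 (2.35 to 5.07), rank 104. Pparg and Lpl, the members that hold a miR-27 match, thus had ratios of 3.33 and 2.02. Among the 5 well covered members that hold no match, the ratios were 4.96 for Car3, 4.31 for Fabp4, 3.59 for Plin4, 0.944 for Plin2 and 0.939 for Fabp5.

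Adipoq and Cfd, the secreted proteins adiponectin and adipsin that mark mature fat cells, had few reads. Adipoq had 8 reads in WT, 9 in Cart-miR-23clus KO, 1 in the miR-26a KO and 0 with the mimic. Its ratio of Cart-miR-23clus KO to WT was 1.24 (0.435 to 3.78). Cfd had 1 read in WT, 5 in Cart-miR-23clus KO, 1 in the miR-26a KO and 1 with the mimic, and its ratio of 5.51 had an interval from 0.631 to 267. The fat cell hormone genes therefore allow no statement on a difference between Cart-miR-23clus KO and WT. Against the miR-26a KO the ratio of Adipoq in Cart-miR-23clus KO, 9 reads to 1, was 9.02 with an interval from 1.28 to 405, and against the 0 reads of the mimic library the interval began at 2.15.

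The order of the members by TPM differed between libraries. In WT the highest were Plin2, Car3, Lpl, Fabp4 and Fabp5, from 103 down to 59.2 TPM, each overlapping the next in its interval. In Cart-miR-23clus KO the order was Car3, Fabp4, Lpl and Plin2, from 429 to 96.8 TPM, with no overlap between neighbours. Pparg, Fabp5 and Plin4 followed at 57.0 to 46.0 TPM. TPM divides by gene length although these libraries read only 3′ ends, so an order between genes depends on that division: by reads, Lpl was first in all 4 libraries and Plin4 was 2nd or 3rd.

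Other libraries were also set in the place of WT, a comparison added after the data had been seen, and the same 5 members were above 2. Against miR-26a KO, 5 of 7 were above 2 and 0 below 0.5, where 3.99% of 9453 genes were above and 3.43% below. Car3 was at 5.99, Lpl at 5.55, Fabp4 at 3.39, Plin4 at 2.75 and Pparg at 2.62. Against miR-26a KO + mimic, 5 of 7 were above 2 and 0 below, where 3.2% of 9534 genes were above and 3.91% below. Car3 was at 11.7, Lpl at 3.85, Pparg at 3.25, Plin4 at 2.52 and Fabp4 at 2.28. These comparisons share the Cart-miR-23clus KO library with the main one and are not independent of it.

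**Figure D2:**
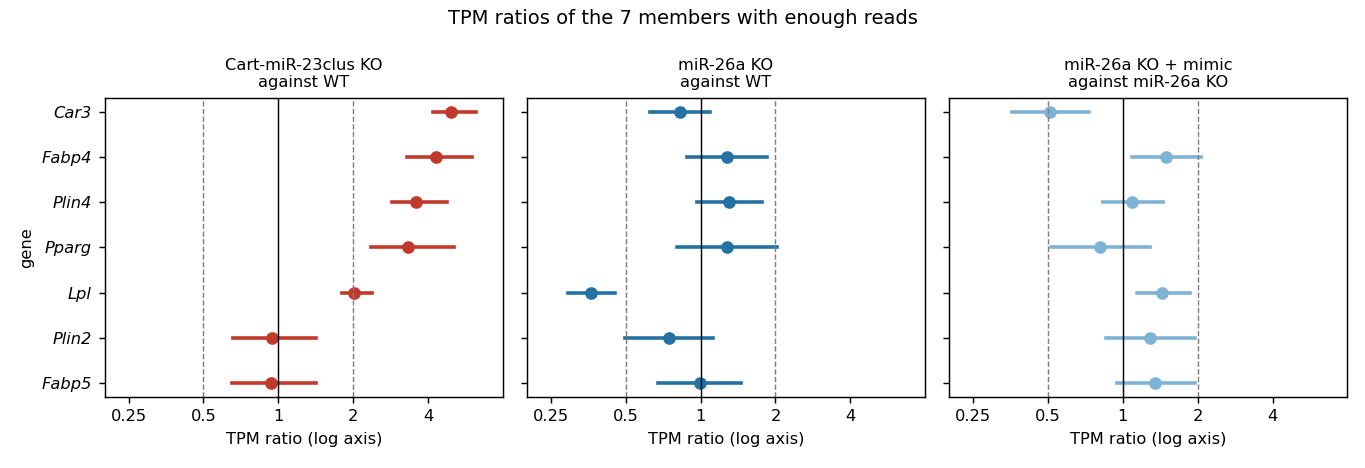
TPM ratios (horizontal log axes) of the 7 fat storage genes with enough reads in 3 comparisons, with 95% counting intervals as bars. Solid lines mark a ratio of 1 and dashed lines the limits of 0.5 and 2. In Cart-miR-23clus KO against WT 5 genes lie above 2, in miR-26a KO against WT Lpl alone lies below 0.5, and with the mimic no gene passes a limit.

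In miR-26a KO against WT, 0 of 7 members were above 2 and 1, Lpl, was below 0.5, where 3.88% of 9545 genes were above and 3.5% below. With no filter on reads 0 of 9 were above and 2 below, Lpl and Adipoq, where 8.72% of genes were above and 7.51% below. The median log2 ratio of the members was -0.01, beside 0.02 over all genes compared. Plin4 was at 1.30 (0.969 to 1.76), Fabp4 at 1.27 (0.880 to 1.85), Car3 at 0.828 (0.628 to 1.09) and Plin2 at 0.750 (0.497 to 1.12), all with intervals that include 1. Adipoq, with 8 reads in WT and 1 in miR-26a KO, had a ratio of 0.137 (0.00310 to 1.03).

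Macrophages also express Lpl, so their markers were set beside it. The summed level of 17 macrophage markers was 1166 TPM in WT, 1406 in Cart-miR-23clus KO, 420 in the miR-26a KO and 785 with the mimic, with 1 or 2 of the 17 at 0 in each library. In miR-26a KO against WT, 10 of the 12 markers with enough reads were below 0.5 and 0 above 2. Over all genes compared, 3.5% were below and 3.88% above. Lyz2, the lysozyme of macrophages, had 712 reads in WT, 633 in Cart-miR-23clus KO, 222 in the miR-26a KO and 396 with the mimic. Csf1r, the receptor for their growth factor, had 80, 144, 45 and 82 reads. In Cart-miR-23clus KO against WT, 0 of 13 markers passed a limit, where 4.73% of all genes were above 2 and 4.38% below 0.5. Of the 13, 10 had a ratio over 1, with a median log2 ratio of 0.32. Csf1r, at 1.98 (1.53 to 2.70), and Adgre1, at 1.98 (1.14 to 3.70), lay just under the limit, and both were at 2.03 with reads scaled by library size alone. In bulk RNA, fewer cells of a type and less RNA per cell cannot be told apart. The part of these cells in the Lpl values was not tested.

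The mimic library was set against miR-26a KO, which has its genotype. No member was above 2 or below 0.5, where 1.89% of 9471 genes were above and 1.46% below. With no filter on reads 0 of 8 members passed a limit, where 5.2% of genes were above and 7.31% below. The median log2 ratio of the 7 members with enough reads was 0.36, beside -0.004 over all genes compared. With no filter the members' median was 0.24. Car3 came nearest to a limit, with 95 reads in miR-26a KO and 52 with the mimic, a ratio of 0.511 (0.360 to 0.729). Fabp4 was at 1.49 (1.09 to 2.07) and Lpl at 1.44 (1.14 to 1.86), while Fabp5, Plin2, Plin4 and Pparg, from 0.807 to 1.34, had intervals that include 1. The levels of Fabp4 and Lpl were higher beside a higher macrophage sum, in which 4 of 10 markers with enough reads were above 2. Car3 went the other way. Fabp4 did not go with that sum when miR-26a KO was set against WT: it was at 60.9 TPM in WT and 77.4 in miR-26a KO, where the sums were 1166 and 420. The part of macrophages in these values was not tested either. No member holds a match to the miR-26a seed in its annotated 3′ UTR.

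Other genes of the same pathways in Cart-miR-23clus KO against WT were counted by lists, to be read against the 4.73% above 2 and 4.38% below 0.5 over all genes compared. Among lipid uptake genes that are no members, 2 of 13 with enough reads were above 2 and 0 below 0.5: Slc27a3, a fatty acid transport protein, with 3 reads in WT and 23 in Cart-miR-23clus KO (ratio 8.44, 2.61 to 45.0), and Msr1, the macrophage scavenger receptor, with 10 and 23 reads (2.53, 1.19 to 6.11). Slc27a3 was also high in miR-26a KO, with 19 reads, and with the mimic, with 22. WT was thus the library that stood apart for Slc27a3.

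Of 12 genes of triglyceride synthesis, 2 were above 2 and 0 below 0.5, against 4.73% and 4.38% of all genes. Dgat2, which joins the last fatty acid to diacylglycerol, had 13 reads in WT and 37 in Cart-miR-23clus KO (3.13, 1.67 to 6.58). Lpin1, the phosphatase one step earlier, had 54 and 116 reads (2.37, 1.74 to 3.41). The median log2 ratio of the list was -0.01, so the other genes of the list were spread around no difference.

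Among the other droplet proteins, 0 of 5 were above 2 or below 0.5. Plin3 was at 1.33 (1.07 to 1.73) and Hilpda at 0.765 (0.600 to 1.02). Plin1, the perilipin that defines mature fat cells, had 1 read in Cart-miR-23clus KO and 0 in the other 3 libraries. Among lipolysis genes, 0 of 4 passed a limit: Mgll, which cleaves monoglycerides, was at 1.82 (1.34 to 2.61) and Lipa, the lysosomal lipase, at 1.85 (1.31 to 2.78). Pnpla2, the main triglyceride lipase of fat cells, was at 0.991 (0.664 to 1.55) and Abhd5, its activator, at 1.10 (0.816 to 1.56). Fabp3, the only other member of the Fabp family with enough reads, had 25 reads in WT and 40 in Cart-miR-23clus KO, a ratio of 1.76 (1.07 to 3.11).

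Of 11 other transcription factors of fat cell formation, 3 were above 2, against 4.73% of all genes, and 0 below 0.5. Ebf1, an early factor upstream of Pparg, had 26 reads in WT, 98 in Cart-miR-23clus KO, 34 in the miR-26a KO and 30 with the mimic, so that it was high in the same library as Pparg (4.15, 2.74 to 6.83). Nr1h3, a sterol sensor, had 8, 20, 18 and 18 reads and Prdm16, a factor of brown fat, 7, 14, 17 and 11. The interval of Prdm16 in Cart-miR-23clus KO against WT, 0.852 to 6.61, includes 1. Both were low in WT and not high in Cart-miR-23clus KO alone.

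Of 5 other adipokine and receptor genes, 0 were above 2 and 2 below 0.5. Apln, the peptide apelin, had 43 reads in WT and 5 in Cart-miR-23clus KO (0.128, 0.0406 to 0.331), and Rbp4, the retinol carrier, had 137 and 60 (0.482, 0.359 to 0.674). Nampt, an enzyme that fat cells also secrete, went the other way, with 137 and 245 reads and a ratio of 1.97 (1.63 to 2.51), or 2.02 when reads were scaled by library size alone. The list thus had genes in both directions.

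**Figure D3:**
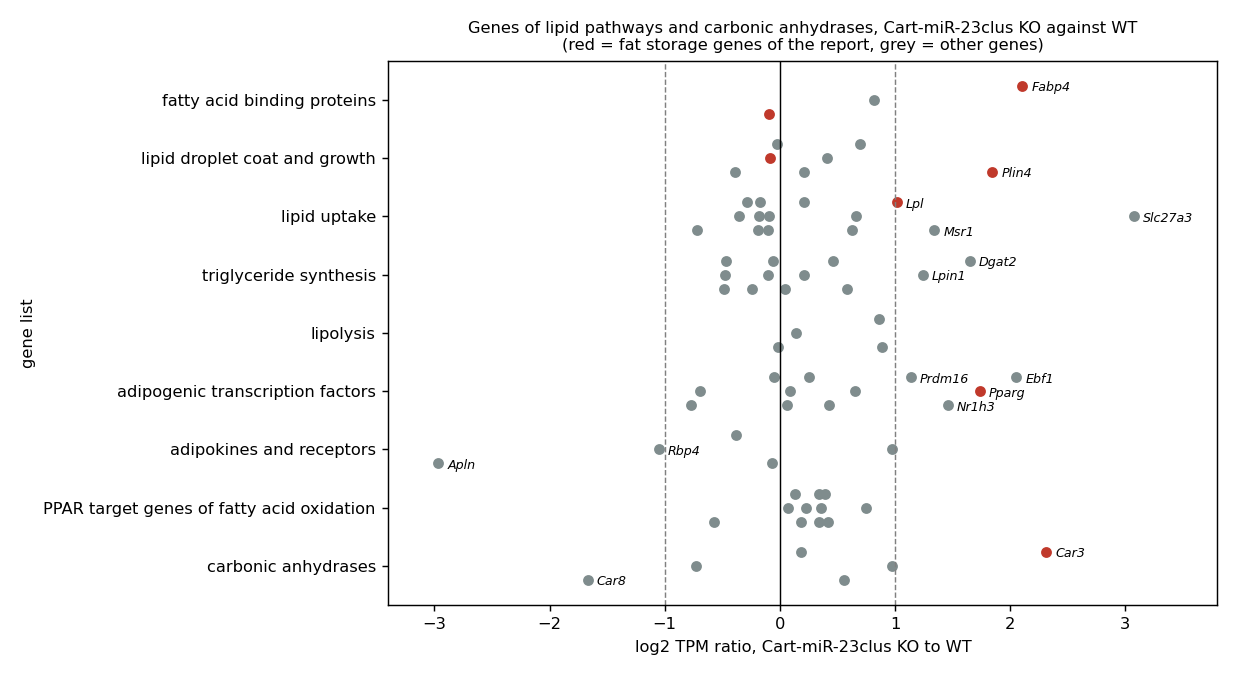
Log2 TPM ratios of Cart-miR-23clus KO to WT (horizontal axis) for every gene with enough reads in 9 gene lists (rows), members of the set in red and other genes in grey. Dashed lines mark 2 times higher and 2 times lower. Only Slc27a3 reaches further than Car3 on the high side, most other genes lie between the dashed lines, and Apln, Car8 and Rbp4 lie to the left.

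In miR-26a KO against WT the lipid genes above 2 that are no members were Slc27a3 (6.96, 2.05 to 36.7), Lipa (2.17, 1.52 to 3.16), Prdm16 (2.67, 1.05 to 7.62), Nr1h3 (2.47, 1.02 to 6.58) and Cdh13, a receptor for adiponectin, at 4.61 (1.69 to 15.7) with 5 and 21 reads. Gpam, the first enzyme of triglyceride synthesis, was below 0.5 with 43 reads in WT and 14 in miR-26a KO (0.358, 0.181 to 0.667). Above 2 were thus 1 of 12 uptake genes, 1 of 4 lipolysis genes, 2 of 11 transcription factors and 1 of 6 adipokine and receptor genes. Below 0.5 was 1 of 12 genes of triglyceride synthesis, and the other lipid lists had none past a limit. Over all genes compared, 3.88% were above and 3.5% below. With the mimic, no gene of the lipid lists or of the carbonic anhydrases passed a limit against miR-26a KO. There, 1.89% of all genes were above 2 and 1.46% below 0.5.

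Markers of fat cells other than the members gave a mixed picture. The 14 markers summed to 69.7 TPM in WT, 153 in Cart-miR-23clus KO, 73.3 in the miR-26a KO and 102 with the mimic. Of the 14, 6 were at 0 in WT, 6 in Cart-miR-23clus KO, 10 in the miR-26a KO and 8 with the mimic, and the defining genes Lep, Slc2a4, Pck1 and Cidec were at 0 in all 4. The difference between libraries came mostly from Adig, a small membrane protein of fat cells, with 18 reads in WT, 65 in Cart-miR-23clus KO, 22 in the miR-26a KO and 33 with the mimic. Its ratio of Cart-miR-23clus KO to WT was 3.98 (2.39 to 7.30). The other gene with enough reads, Agpat2, an enzyme of lipid synthesis, was at 28.1 to 38.6 TPM in the 4 libraries, and in WT at 29.3 TPM beside 27.3 for Adig. Lipe, the hormone-sensitive lipase, had 6 to 10 reads per library.

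Markers of stromal cells and preadipocytes differed more. Their sum was 580 TPM in WT, 3460 in Cart-miR-23clus KO, 699 in the miR-26a KO and 728 with the mimic, with 1 or 2 of the 11 genes found at 0. In Cart-miR-23clus KO against WT, 3 of 9 with enough reads were above 2, against 4.73% of all genes, and 0 below 0.5. Cxcl12, a chemokine of marrow stromal cells that support blood formation and can turn into fat cells, carried most of it with 765 reads in WT, 5045 in Cart-miR-23clus KO, 428 in the miR-26a KO and 531 with the mimic. Dlk1, a preadipocyte factor that restrains fat cell formation and is also made by immature chondrocytes, had 18, 220, 80 and 69 reads, and Icam1, an adhesion molecule, 27, 166, 51 and 54. Dlk1, Icam1, Spp1, Acta1, Adgre1, Nampt and the fat cell markers named other than Adig and Agpat2 were picked after their values had been seen. Ccn5, a matrix protein of stromal cells, had 108, 116, 209 and 237 reads. In miR-26a KO against WT, where none of the fat storage genes was above 2, 4 of 9 of these markers were above 2, against 3.88% of all genes, and the median log2 ratio of the list was 0.85, beside 0.49 in Cart-miR-23clus KO against WT. The summed level was thus highest in the library in which Fabp4, Plin4, Lpl, Car3 and Pparg were highest, but single markers were also high in miR-26a KO. Their part in the fat storage values was not tested.

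Markers of other cell types were summed too. Endothelial markers summed to 16.2 TPM in WT, 31.9 in Cart-miR-23clus KO, 22.8 in the miR-26a KO and 22.1 with the mimic. Of these 11 markers, 7 to 9 were at 0. Egfl7 carried most of the sum, with 6 reads in WT, 11 in Cart-miR-23clus KO, 7 in the miR-26a KO and 8 with the mimic. The endothelial sum was thus highest in Cart-miR-23clus KO, on few reads. The part of endothelial cells in the fat storage values was not tested. Vwf, a clotting factor of endothelial cells, had 0 to 3 reads. Skeletal muscle markers, looked at because muscle also makes Car3, summed to 17.4 TPM in WT and 15.0 in Cart-miR-23clus KO, with 9 of 15 at 0 in both. Tnnt3 and Mylpf, proteins of fast muscle fibres, had at most 5 reads in a library. Acta1, the actin of skeletal muscle, had 2 reads in WT, 10 in Cart-miR-23clus KO, 1 in the miR-26a KO and 3 with the mimic, a ratio to WT of 5.51 (1.20 to 53.0) in Cart-miR-23clus KO, below the minimum of 20 reads. It was highest in the library in which Car3 was highest, and the part of muscle cells in the Car3 values was not tested. Red blood cell markers had 0 TPM in 3 libraries and 0.642 with the mimic. The globin genes Hba-a1 and Hba-a2 had 0 reads in every library. Osteoblast markers were lower in Cart-miR-23clus KO. Their sum was 13019 TPM in WT, 3919 in Cart-miR-23clus KO, 6872 in the miR-26a KO and 7747 with the mimic. In Cart-miR-23clus KO against WT, 7 of 9 with enough reads were below 0.5 and 1 above 2. Over all genes compared, 4.38% were below and 4.73% above. The exception above 2 was Spp1, osteopontin, which macrophages also make, at 2.09 (1.99 to 2.30) with 1140 and 2160 reads. Col1a1, the main collagen of bone, had 39203 reads in WT and 7378 in Cart-miR-23clus KO, and Ibsp, a bone matrix protein, 10938 and 1653. The chondrocyte sum was 17886 TPM in WT and 12258 to 12957 in the other 3. Its part, and that of the osteoblast genes, in the fat storage values was not tested.

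**Figure D4:**
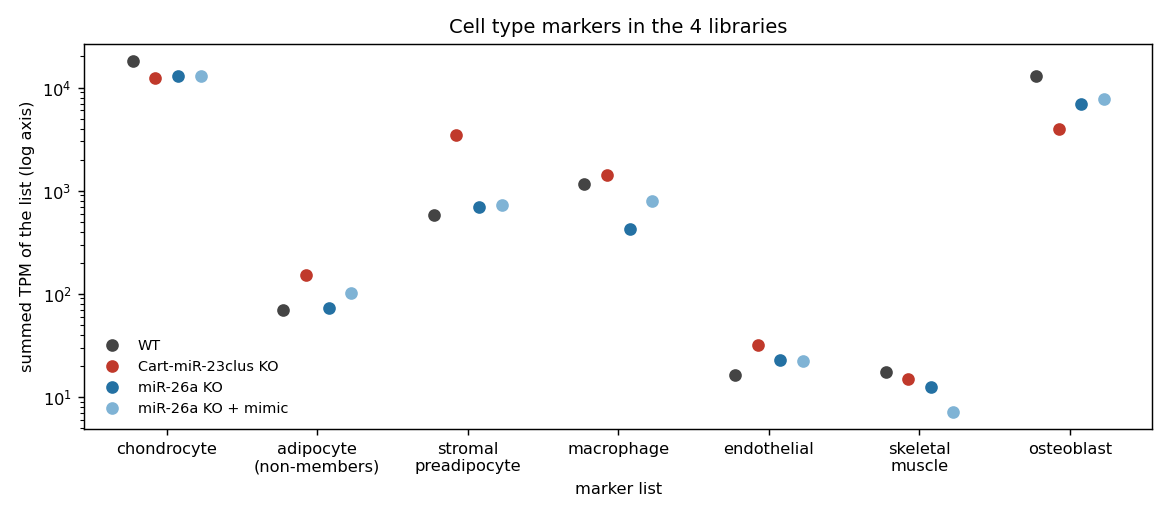
Summed TPM (vertical log axis) of marker lists of 7 cell types (horizontal axis) in the 4 libraries, without the red blood cell list, which was at or near 0. The stromal preadipocyte sum is highest in Cart-miR-23clus KO at 3460 TPM, the macrophage sum is lowest in miR-26a KO at 420, and the osteoblast sum is lowest in Cart-miR-23clus KO at 3919.

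The genes most like each leading member over the 4 libraries were found by the distance between log2 levels (TPM plus 0.5, centred on the gene's mean) among 9012 genes that averaged 5 TPM or more. For Fabp4 the nearest was Adig, at a distance of 0.14, followed by Apbb1ip, an adaptor of white blood cells (0.22), and Alox5ap, which white blood cells need to make leukotrienes (0.28). Apbb1ip had 8 reads in WT, 38 in Cart-miR-23clus KO, 11 in the miR-26a KO and 20 with the mimic, and Alox5ap had 5, 28, 7 and 12. These genes were picked by their likeness to Fabp4. In miR-26a KO against WT, where Fabp4 was at 1.27, 10 of 12 macrophage markers were below 0.5, against 3.5% of all genes. With the mimic against miR-26a KO, where Fabp4 was at 1.49, 4 of 10 were above 2, against 1.89%. The part of white blood cells in the Fabp4 profile was not tested.

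For Plin4 the nearest were Adhfe1, a mitochondrial dehydrogenase (0.16), Phactr1 (0.19) and ENSMUSG00000115003, which has no symbol in the files (0.20). For Lpl they were Eva1a (0.31), Msr1 (0.31) and Mmp12, the macrophage elastase (0.31), with Mmp12 at 3, 7, 1 and 2 reads. For Car3 they were ENSMUSG00000079225, without a symbol (0.79), Hp, the haemoglobin-binding protein haptoglobin (0.89), and Cxcl12 (0.92), so that no gene came as near to Car3 as to the other 3. Several of these neighbours have under 10 reads in some libraries, and 4 points leave room for many like profiles.

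Related genes could take or give reads where sequences are shared. No window of 75 bases in the last 500 bases of any member's annotated transcript occurs in an annotated transcript of another gene.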

How the data were processed

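RNA of 4 libraries of cultured femoral head chondrocytes was prepared by the authors with the QuantSeq 3′ kit, read as single-end reads and mapped to mm10 (GRCm38.p6 in the submitters' processing notes); aligner, counter and annotation are not given in the sources used here. The deposited estimated counts are whole reads per gene for 3 libraries. The deposited TPM values, made by the authors, cover 55141 genes in all 4. Reads of the mimic library were recovered from its TPM steps: 14429 of 14429 values tested were whole within 0.001, and 588 genes above 0 gave none. The 309 genes without TPM held at most 0.633% of the reads.

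TPM ratios were called above 2 or below 0.5 over genes with at least 20 reads in both libraries together. Ratios have 95% intervals of the exact Clopper-Pearson kind, from reads given their sum, with library totals as offset, and Poisson intervals for single levels; reads are not independent molecules. Members and lists were chosen with earlier results of these data known. Genes named are all members; per pathway list and comparison, up to 3 called non-members with the largest log2 ratio; the 2 markers per cell type with most WT reads; and the 3 nearest profiles of Fabp4, Plin4, Lpl and Car3. Others were named after their values were seen. The lists hold uptake, droplet, Fabp, triglyceride synthesis, lipolysis, transcription factor, adipokine, fatty acid oxidation and carbonic anhydrase genes and markers of 8 cell types.

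Alternatives were CPM, edgeR 4.0.16 TMM and DESeq2 1.42.0 size factors, other filters, and 0.5 or 1 TPM added. Python 3.11.15, scipy 1.17.1 and R 4.3.3 were used, and steps were tested on simulated data. Gene positions and UTRs are from GENCODE on GRCm38. Promoters and proteins were not used here.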

Additional observations from a re-analysis of the deposited data

How the results depend on the processing

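Counts of members past a limit changed only with no filter on reads. In miR-26a KO against WT the count went from 1 of 7 to 2 of 9, since Adipoq, with 9 reads in the 2 libraries, was then counted. In Cart-miR-23clus KO against WT it went from 5 of 7 to 7 of 10, with Cd36 and Cfd added, both of which have intervals that include 1, and the median log2 ratio went from 1.74 to 1.44. With no filter, 10.3% of all genes were above 2 in the latter comparison and 7.51% below 0.5 in the former. The ratios of the 7 members stayed within their counting intervals under CPM, TMM, size factors, and 0.5 or 1 TPM added. Lpl stayed above 2 in Cart-miR-23clus KO against WT, at 2.01 to 2.07. Against miR-26a KO and the mimic library in place of WT, the members' median log2 ratio was 1.46 and 1.33. No paired analysis was possible because there is only 1 library per condition, and for the same reason no library could be left out. Depth limits Cd36, Adipoq and Cfd, whose intervals against WT all include 1.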

Other observations

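Genes of fatty acid oxidation that PPAR factors are known to switch on lay slightly above WT in Cart-miR-23clus KO. Of 11 with enough reads, 0 were above 2 or below 0.5, where 4.73% of all genes were above and 4.38% below. Of the 11, 10 had a ratio over 1, and the median log2 ratio was 0.34, beside -0.02 over all genes compared. Slc25a20, the carnitine carrier of mitochondria, was the exception at 0.674 (0.423 to 1.11). In miR-26a KO against WT 4 of 11 had a ratio over 1, with a median log2 ratio of -0.02.

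Of 5 carbonic anhydrases other than Car3 with enough reads, 0 were above 2 and 1, Car8, was below 0.5 in Cart-miR-23clus KO against WT. Over all genes compared, 4.73% were above and 4.38% below. Car6, a secreted form, had 78 reads in WT, 139 in Cart-miR-23clus KO, 152 in the miR-26a KO and 171 with the mimic, so that WT was the low library. Its ratio of Cart-miR-23clus KO to WT was 1.96 (1.51 to 2.69), or 2.01 when reads were scaled by library size alone, and that of miR-26a KO to WT was 2.14 (1.62 to 2.85), above the limit. Car8, which has lost enzyme activity, had 70 reads in WT, 20 in Cart-miR-23clus KO, 19 in the miR-26a KO and 22 with the mimic, and WT was the high one. The ratio of Car8 to WT was 0.315 (0.186 to 0.536) in Cart-miR-23clus KO and 0.298 (0.170 to 0.501) in miR-26a KO. Car5b, a mitochondrial form, had 30, 31, 50 and 62 reads.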
